A study of Homo sapiens with 8 samples.

Results

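Small nuclear RNA (snRNA), small nucleolar RNA (snoRNA) and small Cajal body RNA (scaRNA) genes were examined in RNA sequencing of MM.1S, an established human MM cell line. Cells were collected after 12 h in 4 groups of 2 samples, namely vehicle, FeAc (a source of iron), bortezomib (a proteasome inhibitor) and bortezomib plus FeAc. All groups were of the wild-type line, the supplementary methods name biological replicates, and the labels give no dose. Of 60671 genes, 565 had a symbol starting with SNORD, SNORA, SCARNA or RNU and not ending in P, and 54 of these reached at least 5 TPM (transcript abundance, scaled by length and to one total per sample) in any of the 8 samples. Those 54 genes, 8 SNORD, 33 SNORA, 3 SCARNA and 10 RNU, are described here. Since they were chosen on their highest value in these same samples, their presence in at least 1 sample was fixed by the choice and was not tested. The values just inside the limit were 5.11 TPM for SCARNA10 and 5.62 TPM for SNORA74A, and those just outside were 4.73 TPM for SCARNA9 and 4.17 TPM for SCARNA7. The question was whether a gene that is present in a treated group and 0 in its control can be read as a treatment effect, and the spread between the samples of a group was used as the measure for it.

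As background, snRNAs form the cores of the spliceosome, in which U1 reads the start of an intron and U4 holds U6 until the complex is activated. Box C/D snoRNAs (SNORD) guide methylation and box H/ACA snoRNAs (SNORA) guide pseudouridylation of rRNA, a few of both kinds act in cleavage of the rRNA precursor, and scaRNAs guide the same modifications on snRNAs in Cajal bodies. Most human snoRNAs are cut out of introns of host genes, many of which encode ribosomal proteins or noncoding SNHG transcripts, and mature snoRNAs and snRNAs carry no poly(A) tail. They are abundant RNAs of the nucleus.

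The sequences on which the results turn are given from GENCODE release 29 (GRCh38), in the sense direction and with T for U. The first pair is shown because a single symbol covers 2 genes with different patterns. Both are named SNORD22 in the tables and lie within SNHG1, and capitals mark the last CTGA, the letters of the D box of box C/D snoRNAs.
SNORD22 (ENSG00000278527), chr11:62854161-62854285, minus strand: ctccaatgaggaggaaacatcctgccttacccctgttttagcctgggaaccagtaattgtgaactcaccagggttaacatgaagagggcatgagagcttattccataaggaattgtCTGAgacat
SNORD22 (ENSG00000277194), chr11:62852910-62853035, minus strand: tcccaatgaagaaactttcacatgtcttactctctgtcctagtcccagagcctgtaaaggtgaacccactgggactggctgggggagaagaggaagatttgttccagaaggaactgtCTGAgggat
The pair aligned with 65.4% identity over 133 columns, so these were different RNAs under one symbol. The letters TGATGA, the consensus of the C box, were searched on the sense strand and were in neither sequence. They were in 4 of the 8 SNORD genes described here and in 74.0% of all 308 SNORD rows, and CTGA was in 7 of 8 and in 97.1%, where CTGATGA lets both motifs overlap.

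The U4 copies are shown because a few bases separate them. Capitals mark the bases at which they differ.
RNU4-1, chr12:120293097-120293237, minus strand: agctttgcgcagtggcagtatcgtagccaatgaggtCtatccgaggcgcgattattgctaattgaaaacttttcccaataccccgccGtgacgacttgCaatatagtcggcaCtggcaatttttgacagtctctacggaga
RNU4-2, chr12:120291763-120291903, minus strand: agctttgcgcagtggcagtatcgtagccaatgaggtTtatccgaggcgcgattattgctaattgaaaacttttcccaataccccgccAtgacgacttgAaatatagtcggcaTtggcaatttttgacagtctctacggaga
They were identical at 137 of 141 positions, and the differences, counted from 1 at the 5′ end with RNU4-1 first, were C37T, G88A, C99A and C113T. U1 is shown because 4 of its genes could not be told apart. Capitals mark ACTTACCTG, the stretch that pairs with the start of introns.
RNU1-1, chr1:16514122-16514285, minus strand: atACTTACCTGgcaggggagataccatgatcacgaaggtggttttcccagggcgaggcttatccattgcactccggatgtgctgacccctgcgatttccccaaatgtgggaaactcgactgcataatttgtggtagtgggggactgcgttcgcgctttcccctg
RNU1-1, RNU1-2, RNU1-3 and RNU1-4 had this same sequence of 164 bases, which 4 further annotated genes shared, and ACTTACCTG was in these 4 RNU rows of all 25 on the sense strand. Of the box H/ACA genes, SNORA73A and SNORA7A are shown because limma called them, and SNORA73B because it is the close relative of SNORA73A that was above 0 in all 8 samples. Capitals mark ACA at 3 bases before the end.
SNORA73A, chr1:28507366-28507571, plus strand: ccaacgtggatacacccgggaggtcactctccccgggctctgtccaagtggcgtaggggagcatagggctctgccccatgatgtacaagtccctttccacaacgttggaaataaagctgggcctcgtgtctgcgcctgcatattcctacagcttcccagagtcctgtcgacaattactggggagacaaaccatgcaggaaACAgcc
SNORA73B, chr1:28508559-28508762, plus strand: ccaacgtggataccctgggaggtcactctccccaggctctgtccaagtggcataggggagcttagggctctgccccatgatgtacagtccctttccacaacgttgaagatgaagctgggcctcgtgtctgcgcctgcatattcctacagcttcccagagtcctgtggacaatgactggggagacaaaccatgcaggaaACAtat
SNORA7A, chr3:12840312-12840450, minus strand: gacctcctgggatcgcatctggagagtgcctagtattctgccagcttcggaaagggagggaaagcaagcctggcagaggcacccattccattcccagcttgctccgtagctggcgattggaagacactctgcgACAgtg
SNORA73A and SNORA73B aligned with 93.2% identity. This ACA was in 22 of the 33 SNORA genes and in 68.0% of 206 SNORA rows with a sequence.

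Depth per sample is unknown, because TPM carry no counts. The samples held 13020 to 13770 genes with at least 1 TPM, and the values of each sample summed to 994968.1 to 996780.1. Plasma cell markers (8 genes) summed to 1719.42 to 3041.29 TPM and were above 0 in every sample, and markers of T cells, monocytes, erythroid and stromal cells (9 genes) summed to 7.16 to 15.66 TPM, with CD3D at 0 in all 8. Mitochondrially encoded genes (all symbols starting with MT-) took 2.99% of TPM in bortezomib plus FeAc 1 and 5.49% to 14.32% in the other samples. The vehicle and FeAc samples are in a separate table from both bortezomib groups, so values set across these tables rest on the shared gene rows and near-equal sums, and table and bortezomib treatment cannot be told apart.

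Detection of these genes was low and patchy. Of their 432 values, 285 (66.0%) were exactly 0. Each sample held 12 to 23 of the 54 genes above 0 and 4 to 19 at 5 TPM or more. A total of 27 genes were at 5 TPM or more in a single sample and at 0 in the other 7, and these single appearances fell in every sample, with 1 and 4 in the vehicle samples, 3 and 2 with FeAc, 5 and 4 with bortezomib, and 4 and 4 with bortezomib plus FeAc. Only 5 genes were above 0 in all 8 samples, namely RNU1-3, RNU5A-1, SNORA73B, SNORD3A and SNORD3B-1. A value of 0 in these tables is a listed value, and whether it stands for absent RNA, for reads that were not assigned or for RNA lost in library preparation was not tested.

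**Figure D1:**
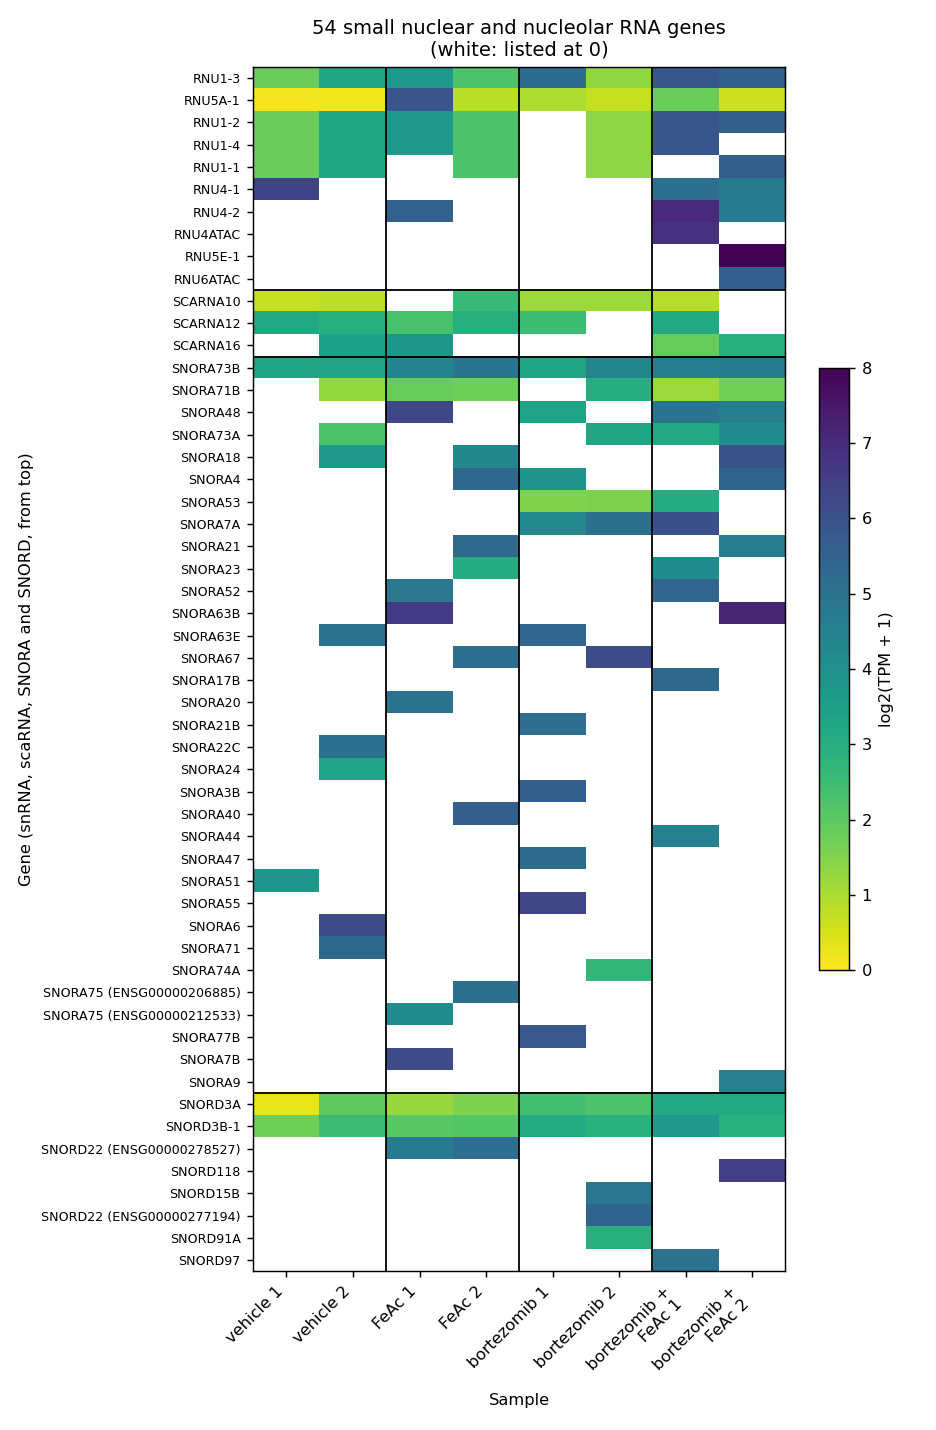
Colour gives log2(TPM + 1) of each of the 54 genes (vertical axis, ordered by class and by the number of samples above 0) in each of the 8 samples (horizontal axis), and white marks a listed 0. The 27 genes at 5 TPM or more in a single sample and at 0 elsewhere are spread over all 8 columns, and 5 rows are filled in every column.

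Short genes had no value in any sample. The shortest row of the name pattern with any value had 116 nt. None of the 306 rows of 115 nt or shorter was above 0 in any sample, and these included 287 of the 308 SNORD rows, whose median length was 81 nt. Of 204 rows of 116 to 150 nt, 38 were above 0 in any sample and 37 are among the 54 genes, with 78.7% of their values at 0. The 9 genes of 151 to 200 nt had 51.4% of values at 0, and the 8 longer than 200 nt had 23.4%. Values above 0 ran the other way, with a median of 32.49 TPM at 116 to 150 nt, 8.49 TPM at 151 to 200 nt and 4.68 TPM above 200 nt. Over the 54 genes, length and the lowest value above 0 had a Spearman rho of -0.65, given as a description over genes that share the same 8 samples. For 27 genes above 0 in 1 sample only, the lowest value was also the highest and had to reach 5 TPM. The rho and these medians thus depend in part on how the genes were chosen. The same limit was seen in other genes, of which 7 of 3590 (0.195%) of 115 nt or shorter were above 0 in any sample, against 4.319% at 116 to 150 nt and 54.896% above 200 nt. Lengths are those of GENCODE 29, and the authors' annotation release is not given in the sources used here.

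**Figure D2:**
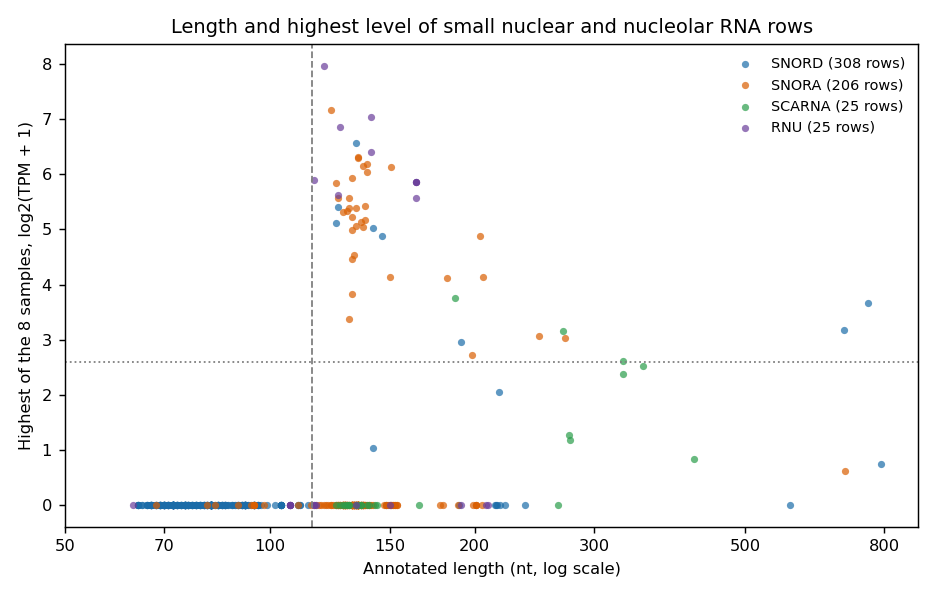
Each point is 1 row of the name pattern with its annotated length in nt (horizontal log axis) and its highest value of the 8 samples as log2(TPM + 1) (vertical axis), coloured by class. No row left of the dashed line at 115 nt is above 0, the highest values lie between 116 and 164 nt, and the dotted line marks 5 TPM.

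Within a group, presence in one sample went with 0 in the other for most of these genes. In vehicle, 15 of the 54 genes reached 5 TPM in either sample, and 9 of these (60%) were at exactly 0 in the other sample, against 0.673% of all genes, these 54 included, at 5 TPM or more in either sample. In FeAc this held for 16 of 23 genes (69.6%), against 0.682%. In bortezomib it held for 15 of 19 (78.9%), against 0.671%. With the combination it held for 19 of 29 (65.5%), against 0.755%. Summed over the groups, 59 of 86 such pairs were present in one sample and 0 in the other, 16 were at 5 TPM or more in both samples, and 11 had a low value in the second sample. Protein-coding genes showed 10 such splits in 36226 pairs (0.028%). Of the 54 genes, 47 showed the split in at least 1 group, and 42 never reached 5 TPM in both samples of any group.

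Splits were more frequent among the shorter genes. Among the 37 genes of 116 to 150 nt, 45 of 51 pairs (88.2%) were split, and in vehicle all 7 were. Among the 17 longer genes, 14 of 35 pairs (40.0%) were split. The 38 genes outside the 54 that were 116 to 150 nt long and reached 5 TPM were split in 48 of 57 pairs (84.2%). They can include symbols ending in P and small RNA genes under other names, so they are not all of other kinds.

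**Figure D3:**
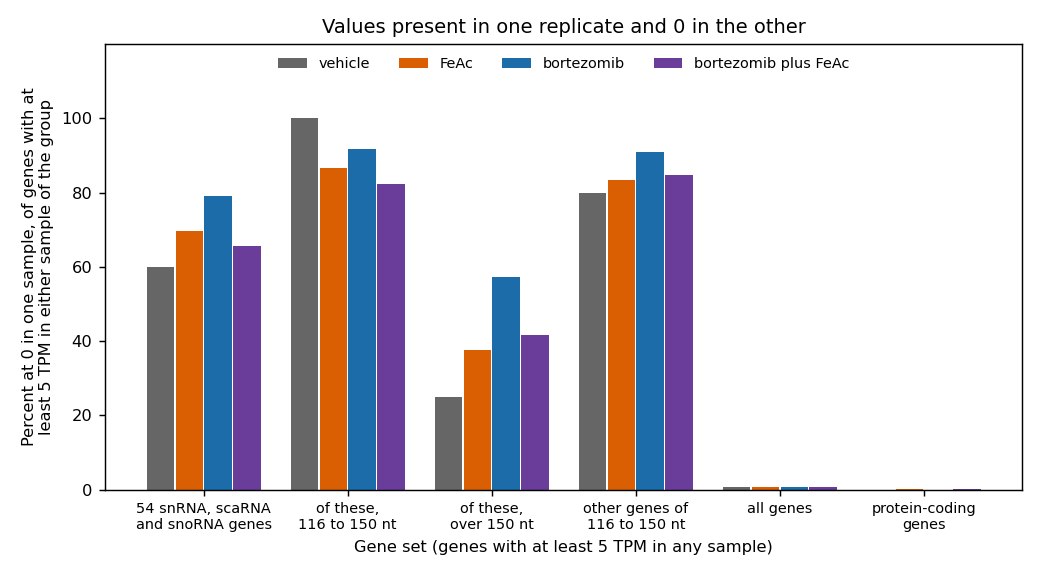
Bars give, for each group, the percent of genes at 5 TPM or more in either sample (vertical axis, %) that were at 0 in the other sample, for 6 gene sets (horizontal axis). The 54 genes lie at 60% to 78.9%, other genes of 116 to 150 nt at 80.0% to 90.9%, and all genes under 1%.

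Between groups, the pattern that a treatment effect would give was set beside a pattern with as many values present that does not follow treatment. With 2 samples per group, 2 arrangements of these values follow the groups and 4 cross them, with 1 present value in each group. The counts of the 2 patterns are therefore not on an equal footing. In FeAc against vehicle, 1 of 31 genes, SNORD22 (ENSG00000278527), was at 5 TPM or more in both samples of one group and at 0 in both of the other, against 0.0385% of all genes. In the same 4 samples, 2 genes, SCARNA16 and SNORA18, were present in 1 sample of each group and 0 in the other of each, against 0.0867% of all genes. For the combination against bortezomib, 2 of 41 genes followed the groups (RNU4-1 and RNU4-2), against 0.0496%, and 1 crossed them (SNORA4), against 0.119%. In bortezomib against vehicle, 1 of 31 followed the groups (SNORA7A), against 0.105%, and 1 crossed them (SNORA63E), against 0.124%. For the combination against FeAc, 3 of 38 followed the groups (RNU4-1, SNORA73A and SNORD22, ENSG00000278527), against 0.085%, and 6 crossed them (SNORA18, SNORA21, SNORA23, SNORA4, SNORA52 and SNORA63B), against 0.113%. Presence in just 1 of the 4 samples was the most frequent form, with 20, 24, 20 and 16 genes in these comparisons. Comparisons that share a group share its samples, so a gene can count in several.

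The U1 genes showed how copies of one sequence were listed. RNU1-3 was above 0 in every sample, at 2.55 and 8.49 TPM with vehicle, 12.23 and 3.71 TPM with FeAc, 36.08 and 1.5 TPM with bortezomib, and 57.22 and 46.54 TPM with bortezomib plus FeAc. Both samples with bortezomib plus FeAc were above the other 6. In each of the 8 samples, the U1 copies above 0 had the same value, while in 4 samples 1 or more copies were at 0. RNU1-2 was at 0 in bortezomib 1, RNU1-4 in bortezomib 1 and bortezomib plus FeAc 2, and RNU1-1 in FeAc 1, bortezomib 1 and bortezomib plus FeAc 1. An identical sequence was thus present under one symbol and 0 under another in the same sample, and these levels are uncertain for each copy. Summed over the 4 copies, U1 was 10.2 and 33.96 TPM with vehicle, 36.69 and 14.84 TPM with FeAc, 36.08 and 6.0 TPM with bortezomib, and 171.66 and 139.62 TPM with bortezomib plus FeAc. The further annotated genes that share this sequence are not in these sums. In bortezomib plus FeAc against FeAc, RNU1-3 had a log2 fold change of 2.74 ± 0.48 (SE, on the log2(TPM + 1) scale) and missed the threshold in limma (Benjamini-Hochberg adjusted p = 0.0639). Against bortezomib the groups also did not overlap (log2 fold change 2.45 ± 1.17, limma adjusted p = 1.0). Of all genes tested, 19.8% lay higher without overlap against FeAc and 8.86% against bortezomib, beside 40.3% and 13.1% lower.

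RNU4-1 was at 83.68 TPM in vehicle 1, at 0 in vehicle 2 and in all samples with FeAc alone or bortezomib alone, and at 32.79 and 25.83 TPM with bortezomib plus FeAc. RNU4-2 was at 44.47 TPM in FeAc 1, at 131.15 and 25.83 TPM with bortezomib plus FeAc, and at 0 in the other 5 samples. The highest RNU4-1 value was in a vehicle sample whose partner was at 0. Where both copies were above 0, RNU4-2 was 4.0 times RNU4-1 in bortezomib plus FeAc 1 and 1.0 times in bortezomib plus FeAc 2. RNU4-1 passed the threshold in limma for bortezomib plus FeAc against bortezomib (adjusted p = 0.0197, and 0.0221 to 1.0 over 9 alternatives) and against FeAc (adjusted p = 0.00949, and 0.000336 to 0.408), each against a group listed at 0. RNU4-2 did not pass in the first of these (adjusted p = 0.386 in limma). U4 summed over both copies was 83.68 and 0 TPM with vehicle and 163.94 and 51.66 TPM with bortezomib plus FeAc, so these groups overlapped. The sum was 44.47 and 0 TPM with FeAc and 0 in both bortezomib samples, below both samples of the combination. The summed values were not tested.

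The other spliceosomal snRNAs appeared mostly in single samples. RNU5E-1, a U5 gene, was at 249.45 TPM in bortezomib plus FeAc 2, the highest value of the 54 genes, and at 0 in the other 7 samples. RNU4ATAC and RNU6ATAC belong to the minor spliceosome and were at 114.91 TPM in bortezomib plus FeAc 1 only and at 48.07 TPM in bortezomib plus FeAc 2 only. RNU5A-1, another U5 gene and the shortest of the 54 at 116 nt, was at 58.44 TPM in FeAc 1 and at 0.10 to 2.54 TPM in the other 7 samples. Summed over the 10 snRNA genes, bortezomib plus FeAc held 453.05 and 489.35 TPM, above the 6.62 to 139.6 TPM of the other 6 samples. RNU5E-1, RNU4ATAC and RNU6ATAC reached the limit of 5 TPM through this group alone, and the sum also holds the U1 copies of one sequence. The difference between the sums thus depends in part on how the genes were chosen. Other short RNAs without a poly(A) tail (14 genes, among them 7SL, 7SK, RMRP and RPPH1) summed to 1425.4 and 660.4 TPM there. The other samples held 237.3 to 728.1 TPM, and only FeAc 2, at 728.1 TPM, lay above a sample of the combination. In FeAc 2, RN7SL1 and RN7SL2 were at 348.55 and 324.34 TPM. Of 6 genes tested, 5 were higher without overlap in bortezomib plus FeAc against bortezomib and 4 against FeAc, with 0 lower. The part of these RNAs in the snRNA levels was not tested. In bulk samples, more RNA per cell and a different share of RNA kinds in the library cannot be told apart.

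SNORD22, a box C/D snoRNA with a part in processing of small-subunit rRNA, had 2 rows. The row ENSG00000278527 was at 24.56 and 33.55 TPM with FeAc and at 0 in the other 6 samples. The row ENSG00000277194 was at 41.44 TPM in bortezomib 2 and at 0 in the other 7. Only the first followed a group. It was called higher with FeAc than with vehicle, which was listed at 0 (limma adjusted p = 0.0114, and 0.569 with no filter), and 4 of 9 alternatives called it. It was called lower with bortezomib plus FeAc, listed at 0, than with FeAc (limma adjusted p = 0.00949, and 0.209 with no filter). SNHG1, the host of both rows, was at 161.5 to 216.02 TPM in the 8 samples.

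SNORD3A and SNORD3B-1 are genes for U3, the snoRNA needed for early cleavage of the rRNA precursor, and at 699 and 758 nt of annotated length they were the longest of the 54 genes. SNORD3A was at 0.22 and 2.84 TPM with vehicle, 1.36 and 1.95 TPM with FeAc, 4.27 and 3.68 TPM with bortezomib, and 7.98 and 7.57 TPM with bortezomib plus FeAc. Both groups with bortezomib lay above both groups without it. In bortezomib plus FeAc against FeAc, its log2 fold change was 1.73 ± 0.25 (SE), just short of the threshold (limma adjusted p = 0.0506), and 4 of 9 alternatives called it. In bortezomib against vehicle it was 1.20 ± 0.52 (limma adjusted p = 0.167), and it was 0.37 without vehicle replicate 1 and 2.02 without vehicle replicate 2. SNORD3B-1 was at 2.41 and 4.68 TPM with vehicle, 3.17 and 3.30 TPM with FeAc, 7.23 and 6.46 TPM with bortezomib, and 11.62 and 6.35 TPM with bortezomib plus FeAc. Both groups with bortezomib again lay above both without it. The log2 fold change of SNORD3B-1 was 0.83 ± 0.29 for bortezomib against vehicle (limma adjusted p = 0.0985), and 0.46 without vehicle replicate 1. For bortezomib plus FeAc against FeAc it was 1.19 ± 0.31 (limma adjusted p = 0.0993). Of all genes tested, 26.8% also lay higher without overlap in bortezomib against vehicle, and 36.1% lower. In bortezomib plus FeAc against FeAc, 19.8% lay higher and 40.3% lower. The U3 genes were identical at 216 of 217 aligned positions of the transcripts compared, and SNORD3B-2 shares a transcript sequence with SNORD3B-1, so the split of reads among them is uncertain.

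**Figure D4:**
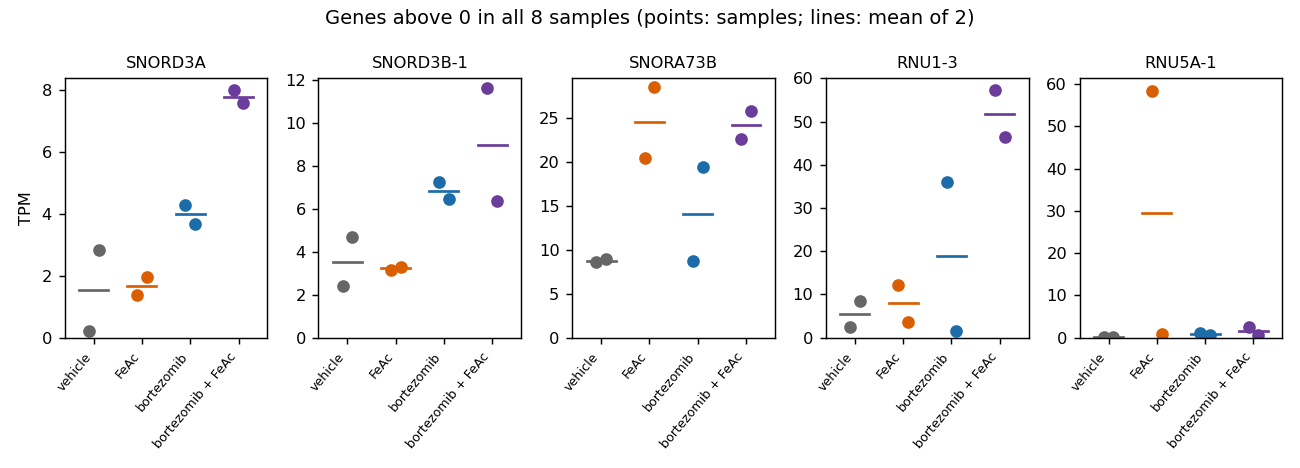
TPM (vertical axes, each from 0) of the 5 genes above 0 in all 8 samples, with 1 point per sample and a line at the mean of each group of 2. SNORD3A and SNORD3B-1 are higher in both groups with bortezomib, SNORA73B is at 8.58 and 8.98 TPM in vehicle and above 20 TPM in both groups with FeAc, and RNU5A-1 reaches 58.44 TPM in 1 of 2 FeAc samples.

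SNORA73B and SNORA73A are box H/ACA snoRNAs with a part in processing of small-subunit rRNA and lie within RCC1 and SNHG3. SNORA73B was at 8.58 and 8.98 TPM with vehicle, 20.53 and 28.57 TPM with FeAc, 8.74 and 19.43 TPM with bortezomib, and 22.66 and 25.80 TPM with bortezomib plus FeAc. It was the only gene of the 54 at 5 TPM or more in every sample. Both groups with FeAc lay above their partners without it, by a log2 fold change of 1.37 ± 0.20 (SE) against vehicle and 0.84 ± 0.36 against bortezomib. The second was 0.30 without bortezomib replicate 1 and 1.37 without bortezomib replicate 2. Neither passed the threshold (limma adjusted p = 0.255 and 1.0, and 0.0921 to 1.0 over 9 alternatives of the first). Of all genes tested, 23.4% also lay higher without overlap with FeAc than with vehicle, and 10.4% lower. In bortezomib plus FeAc against bortezomib, 8.86% lay higher and 13.1% lower. SNORA73A was at 0 and 3.80 TPM with vehicle, 0 and 0 with FeAc, 0 and 8.75 TPM with bortezomib, and 7.90 and 16.51 TPM with bortezomib plus FeAc. It was called higher with bortezomib plus FeAc than with FeAc, which was listed at 0 (limma adjusted p = 0.0393, 0.209 with no filter and 0.0549 with all 4 groups in 1 fit). It was at 0 in 1 of the 2 samples in each of the vehicle and bortezomib groups.

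SNORA7A, a guide for pseudouridylation that lies within the ribosomal protein gene RPL32, was at 0 in all samples with vehicle or FeAc, at 17.88 and 31.94 TPM with bortezomib, and at 65.08 and 0 TPM with bortezomib plus FeAc. It was called higher with bortezomib than with vehicle, listed at 0, but was split in the other group that received bortezomib. The limma adjusted p was 0.00154, with 0.063 under no filter and 0.085 with all 4 groups in 1 fit. SNORA7B, with 98.6% identity to SNORA7A, was at 71.50 TPM in FeAc 1 and at 0 in the other 7 samples. SNORA53, which lies within SLC25A3, was at 1.84 and 2.0 TPM with bortezomib, at 7.40 and 0 TPM with bortezomib plus FeAc, and at 0 in the other 4 samples. It was called higher with bortezomib than with vehicle, listed at 0 (limma adjusted p = 0.0255, 0.071 with no filter and 0.231 with all 4 groups in 1 fit). SNORA7A and SNORA53 passed the filter only through the group in which they were present. They had to differ, so their adjusted p is given as a description. Both of these genes were thus called in the comparison in which 15.0% of all genes were called, and neither was present in both samples with bortezomib plus FeAc.

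The highest single values among the remaining snoRNA genes had a partner at 0. SNORA63B was at 99.74 TPM in FeAc 1 and 143.67 TPM in bortezomib plus FeAc 2, with 0 in all other samples. SNORA48 was at 77.24 TPM in FeAc 1, 9.04 TPM in bortezomib 1, and 28.35 and 22.16 TPM with bortezomib plus FeAc, and was at 0 in the other 4 samples. SNORA55 was at 79.11 TPM in bortezomib 1 and SNORA67 at 69.82 TPM in bortezomib 2, each with 0 in the partner sample. SNORA6 was at 69.60 TPM in vehicle 2, and SNORA71 at 38.75 TPM in the same sample, and both were at 0 in vehicle 1. SNORD118, the U8 snoRNA of large-subunit rRNA processing, was at 93.37 TPM in bortezomib plus FeAc 2 and at 0 in the other 7 samples. SNORA18 was at 11.82, 18.46 and 60.46 TPM in the second sample of the vehicle, FeAc and bortezomib plus FeAc groups and at 0 in the other 5 samples.

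The 3 scaRNA genes were longer, at 187 to 330 nt, and lower. SCARNA12, within PHB2, was at 7.89 and 6.78 TPM with vehicle, 4.01 and 6.98 TPM with FeAc, 4.64 and 0 TPM with bortezomib, and 7.63 and 0 TPM with bortezomib plus FeAc. It was at 0 in 1 sample of each group with bortezomib. SCARNA16 was at 0 and 9.63 TPM with vehicle, 12.57 and 0 TPM with FeAc, 0 in both bortezomib samples, and 2.66 and 6.83 TPM with bortezomib plus FeAc. SCARNA10 stayed between 0 and 5.11 TPM. None of the 3 passed the threshold in limma in any of the 4 comparisons.

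Leading host genes were listed above 0 where most of the RNAs inside them were at 0 in some samples. Of these hosts, TCP1 and SNHG7 rose with bortezomib, as given below. Others lay lower, such as RANBP1, at 454.88 and 401.2 TPM with vehicle and 254.39 and 275.9 TPM with bortezomib. By annotation, 45 of the 54 genes lay inside a gene on the same strand, 29 of them over an exon of at least 1 annotated transcript and 16 in introns alone. Their 37 distinct leading hosts were above 0 in all 8 samples, and in 32 of them the value was at least 5 TPM in every sample with the highest under 3 times the lowest. Of the 39 genes within such a host of at least 5 TPM, 38 were at 0 in at least 1 sample, the exception being SNORA73B. EIF4A2, the host of SNORA4 and SNORA63B, was at 377.53 to 468.91 TPM, EIF4A1, the host of SNORA48 and SNORA67, at 616.25 to 741.25 TPM, TAF1D, the host of SNORA18 and SNORA40, at 170.05 to 233.51 TPM, and RPL32 at 1228.26 to 1858.66 TPM. Reads of a host transcript that cover an exon shared with a snoRNA cannot be told apart from reads of the snoRNA, and 10 of the 54 genes also overlap a gene on the other strand, for which the use of strand in counting is not given in the sources used here.

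**Figure D5:**
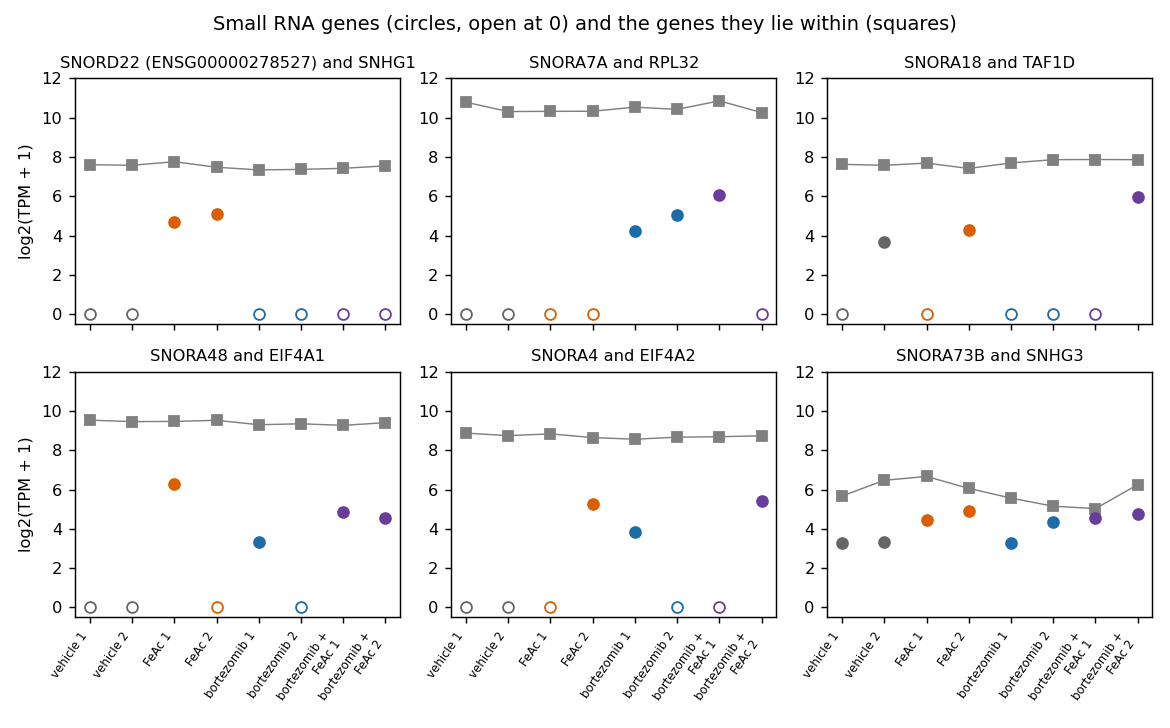
Each panel gives log2(TPM + 1) (vertical axis) in the 8 samples (horizontal axis) for 1 small RNA gene, as circles that are open at 0 and coloured by group, and for the gene it lies within, as grey squares. SNHG1 stays at 161.5 to 216.02 TPM while SNORD22 is above 0 in 2 samples, and SNORA73B is the only circle series with no open circle.

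Several host genes rose with bortezomib. Of 42 host genes tested against vehicle, limma called 4 higher and 0 lower, beside 15.0% of all genes called in either direction. Without overlap, 17 of the 42 lay higher and 8 lower, beside 26.8% and 36.1% of all genes tested. HSPA8, which encodes the chaperone Hsc70, was at 2017.04 and 1300.66 TPM with vehicle and at 15063.64 and 14463.0 TPM with bortezomib (log2 fold change 3.19 ± 0.26, SE, limma adjusted p = 0.00271), and its 3 resident SNORD14 rows of 85 to 88 nt were at 0 in all 8 samples, as was every row of 115 nt or shorter, so these rows say nothing about whether they followed the host. HSPA9, the mitochondrial chaperone, rose from 173.53 and 184.78 to 327.85 and 342.32 TPM (adjusted p = 0.0129 in limma), and its 2 SNORD63 rows, of 68 and 70 nt, are subject to the same limit. TCP1, a subunit of the cytosolic chaperonin, rose from 110.07 and 132.63 to 276.3 and 271.4 TPM (adjusted p = 0.0083 in limma), and its resident SNORA20 was at 30.73 TPM in FeAc 1 alone. SNHG7 rose from 46.37 and 44.41 to 90.25 and 77.05 TPM (adjusted p = 0.0167 in limma), and SNORA17B (ENSG00000276161) within it was at 39.36 TPM in bortezomib plus FeAc 1 alone, the sample in which SNHG7 was highest (97.52 TPM). The other rows within SNHG7, SNORA17A of 133 nt and a second SNORA17B of 136 nt, were at 0 in all 8 samples. So was SNORA29 of 140 nt within TCP1. Whether these RNAs followed their hosts was not tested.

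Across all genes, limma-trend called few members of the set, and each gene called was at 0 in both samples of a group. A call needed an adjusted p under 0.05 together with a change of more than 1.5-fold. In FeAc against vehicle, 35 of the 54 genes averaged 1 TPM or more in either group and so were tested, and 1 was called, higher, against 0.0143% of the 13998 genes tested. For the combination against bortezomib, 43 were tested and 1 was called, higher, against 0.00721%, and RNU4-1 was the only gene called of 13865. In bortezomib against vehicle, 34 were tested and 2 were called, both higher, against 15.0%. Of 39 genes tested for the combination against FeAc, 3 were called, of which 2 were higher and 1 lower, against 0.749%. A gene that passed the filter only through the group in which it was present had to differ. These counts, and the adjusted p of each member called, are therefore given as a description. None of the 5 genes above 0 in every sample was called in any comparison. At an unadjusted p under 0.05, limma gave 3 of 35, 6 of 43, 7 of 34 and 7 of 39 members tested, in the same order. Over all genes tested, this held for 535 of 13998, 290 of 13865, 4675 of 14114 and 3826 of 14291.

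Genes for the proteins that build, carry and trim these RNAs, and for hosts, were counted beside all genes tested. In FeAc against vehicle and in bortezomib plus FeAc against bortezomib, none was called of the 11 box C/D and 6 box H/ACA core and assembly genes, 16 Sm and LSm genes, 16 particle-specific snRNP genes, 11 Cajal body genes, 28 genes of snRNA transcription and 3′ processing, 19 genes of nuclear decay and 42 host genes (limma, with 2 and 1 of the 148 genes at an unadjusted p under 0.05). In those comparisons limma called 0.0143% and 0.00721% of all genes. In bortezomib against vehicle, 16 of the 148 were called (10.8%), beside 15.0% of all genes, and nothing is read from the counts of single lists. Of 16 Sm and LSm genes, 3 fell and 1 rose. LSM2, of the ring that binds U6, was at 97.14 and 89.45 TPM with vehicle and at 49.43 and 47.14 TPM with bortezomib (log2 fold change -0.94 ± 0.14, SE, limma adjusted p = 0.0118). LSM6, of the same ring, fell by 0.88 on the log2 scale (limma adjusted p = 0.0203) and SNRPD1, of the Sm ring, fell by 0.64 (adjusted p = 0.032), whereas LSM10, of the ring on the histone-processing snRNA U7, rose from 82.83 and 62.97 to 133.21 and 119.1 TPM (adjusted p = 0.033). The Sm and LSm list had a median log2 fold change of -0.12, beside -0.066 over all genes tested. Among decay genes, PARN, a deadenylase that trims H/ACA RNAs, and EXOSC5, of the exosome core, fell (limma adjusted p = 0.0429 and 0.0404), with 17 others not called. RUVBL2 of box C/D assembly, SART3 of U4 and U6 recycling, STRAP of the SMN complex, ELL and INTS4 rose (limma adjusted p = 0.0459, 0.0304, 0.0344, 0.0495 and 0.0293) and GEMIN6 of the SMN complex fell (adjusted p = 0.0425). None of the 6 box H/ACA core genes was called by limma, with a list median of -0.202. In bortezomib plus FeAc against FeAc, HSPA8 alone of these lists was called (log2 fold change 3.28 ± 0.42, SE, limma adjusted p = 0.0482).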

How the data were processed

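RNA was extracted with TRIzol and libraries were made with an Illumina TruSeq RNA kit. Whether poly(A) RNA was selected and strand kept is not stated in what was read here. The deposited values, in 2 tables, were read as TPM from their sums, since the file headers name no unit, and the log2 fold changes, fold changes and p-values that the authors deposited beside them, between the groups of each table, were not used. Per the submitters' notes, build GRCh38.p13 was used with HISAT2, RSEM, StringTie, edgeR and DESeq2. Tables were joined on gene ID, and 96.3% of IDs, all 54 members included, were found in GENCODE 29, which gave positions, lengths, hosts and sequences. Limma-trend (limma 3.58.1, R 4.3.3) was run on log2(TPM + 1) over genes that averaged 1 TPM or more in at least 1 of the groups compared, with Benjamini-Hochberg adjustment over all genes tested, and was tested on simulated data. With 2 samples per group, p-values rest on few degrees of freedom. Present means at least 5 TPM. Named genes are both markers SNORD22 and RNU4-1, called members, members that followed the groups, the 4 highest by mean in each class, up to 3 per group with a partner at 0, members above 0 in all samples, and called genes of the pathway lists and hosts. SNORD14, SNORD63, SNORA17A, the second SNORA17B, SNORA29 and the U1 and U4 sums were chosen after their values were seen. Members and lists were chosen with earlier results of these data known. Alternatives were a pseudocount of 0.1, no filter, all 4 groups in 1 fit, a replicate block, scaling by the median of ratios, each sample left out, presence from 1 or 10 TPM, absence under 0.5 TPM and symbols ending in P.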

Additional observations from a re-analysis of the deposited data

Results flagged for a closer look

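RNU1-2 had fold changes of opposite sign in the comparisons of bortezomib without and with FeAc, neither of which passed the threshold in limma (adjusted p = 0.0814 and 0.0639). It was at 2.55 and 8.49 TPM with vehicle and at 0 and 1.5 TPM with bortezomib, a log2 fold change of -1.88 on the log2(TPM + 1) scale, and both bortezomib samples lay below both vehicle samples. With FeAc it was at 12.23 and 3.71 TPM and with bortezomib plus FeAc at 57.22 and 46.54 TPM, a log2 fold change of 2.74, and both samples of the combination lay above both FeAc samples. Of all genes tested, 36.1% lay lower without overlap with bortezomib than with vehicle, and 26.8% higher. For bortezomib plus FeAc against FeAc, 40.3% lay lower and 19.8% higher. The difference between the fold changes of RNU1-2 was not tested. In bortezomib 1, in which RNU1-2 was at 0, the copy RNU1-3 of identical sequence was at 36.08 TPM, and RNU1-3 had a log2 fold change of 0.73 in bortezomib against vehicle, so the sign was not shared by every copy.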

How the results depend on the processing

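The counts of small nuclear and nucleolar RNA genes called by limma depended on the processing. With no filter on low values, 0 of the genes were called in each of the 4 comparisons, and 0 over all genes tested (at an unadjusted p under 0.05, 2 genes of the set in FeAc against vehicle, 3 in bortezomib against vehicle, 5 and 7 in the others). With all 4 groups in 1 fit, 0 were called in bortezomib plus FeAc against bortezomib and 0 in bortezomib against vehicle. Samples with the same replicate number did not deviate together (Pearson r of -0.155, 0.0642, 0.0186 and -0.0998 over genes in the 4 comparisons), so the numbers do not pair the samples, and with a replicate block 15 were called in bortezomib against vehicle, 7 in bortezomib plus FeAc against FeAc and 1 in each other comparison. Scaling by the median of ratios gave 6 in bortezomib plus FeAc against FeAc. With each sample left out in turn, 0 to 0 were called in every comparison, with 6 to 16 at an unadjusted p under 0.05, but these fits called 0 genes of any kind, the lone sample being assumed to vary like the other group. A pseudocount of 0.1 gave 1, 1, 2 and 4 calls. Over all genes, the count called rose from 2 to 23 with the block and to 4 with the pseudocount of 0.1 in FeAc against vehicle. In bortezomib plus FeAc against FeAc it rose from 107 to 189 with that pseudocount and to 2124 with all groups in 1 fit. The block gave 350 there and scaling gave 396. In bortezomib against vehicle the count over all genes was 2113, with 2685 under the block and 1897 with all groups in 1 fit. For bortezomib plus FeAc against bortezomib it was 1 in each of these fits. The sum of splits within groups was 59 and ranged from 48 (present from 10 TPM) to 66 (present from 1 TPM), and the sum of genes that followed the groups was 7 and ranged from 6 to 9. Directions that turned were all of genes that were not called. With samples left out in turn, SNORA73B ranged from -0.0056 (without bortezomib replicate 2) to 1.06 in bortezomib against vehicle and from -0.23 to 0.23 (0.23 without FeAc replicate 2 and 0.087 without bortezomib plus FeAc replicate 1) in bortezomib plus FeAc against FeAc, where scaling gave 0.19. SNORD3A ranged from -0.54 (without vehicle replicate 1) to 1.11 and SNORD3B-1 from -0.42 to 0.31 (without vehicle replicate 2) in FeAc against vehicle, and SNORD3B-1 from -0.092 (without bortezomib plus FeAc replicate 1) to 0.69 in bortezomib plus FeAc against bortezomib, all as log2 fold changes. The cause of these changes was not tested. Depth is unknown with TPM, and so is the number of reads behind a value or a 0.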

Other observations

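Other short RNAs that carry no poly(A) tail gave values in the same libraries. RN7SL1, an RNA of the signal recognition particle, was at 155.6 and 156.01 TPM with vehicle, 94.79 and 348.55 TPM with FeAc, 117.16 and 264.87 TPM with bortezomib, and 695.25 and 261.64 TPM with bortezomib plus FeAc. RMRP (ENSG00000277027), the RNA of RNase MRP, was at 11.16 to 23.4 TPM in the first 3 groups and at 105.84 and 40.84 TPM with bortezomib plus FeAc. RPPH1, the RNA of RNase P, was at 0 to 5.47 TPM in those groups and at 18.16 and 8.25 TPM with bortezomib plus FeAc. RN7SK, which holds back transcription elongation, was at 29.28 to 53.38 TPM in those groups and at 71.55 and 97.36 TPM with bortezomib plus FeAc. RMRP, RPPH1 and RN7SK were thus above all other samples in both samples of the combination, and none of the 14 genes of this list was called by limma in any comparison (5 or 6 were tested, of which 0, 5, 2 and 4 had an unadjusted p under 0.05 in FeAc against vehicle, bortezomib plus FeAc against bortezomib, bortezomib against vehicle and bortezomib plus FeAc against FeAc). Y RNAs and vault RNAs (RNY1, RNY3, RNY4, VTRNA1-1, VTRNA1-2 and VTRNA1-3), of 89 to 113 nt, were at 0 in all 8 samples.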
